A study of Mus musculus with 13 samples.

Results

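Spp1, Capg, Tmprss6 and Map2 are 4 protein-coding mouse genes whose transcripts had been picked because they were lower in gamma delta intraepithelial lymphocytes of mice given the antibody UC7-13D5, with PBS and with IFNa. They are 4 of the 21084 genes in the deposited count table, and all 4 were among the 15835 genes that passed the filter on low counts. The members were chosen by their measured differences between UC7-13D5 and IgG in these same libraries, so those differences are given below as a description, without a test. For Map2 the antibody groups overlapped with PBS.

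The data were bulk RNA sequencing counts of gamma delta T cells sorted from the small intestinal epithelium of wild-type (WT) mice. UC7-13D5 is an antibody raised in hamster that binds the receptor of these cells (TCR, T cell receptor), and Armenian hamster IgG was its control. Every mouse received 200 µg of antibody intraperitoneally and an intravenous injection 5 hours before cells were taken. The treatment protocol places the antibody 48 and 24 hours before isolation, while the design text gives 48 or 24 hours before the intravenous injection. The groups were UC7-IFNa, with UC7-13D5 and 1 µg of interferon alpha (IFNa, a type I interferon), UC7-PBS, with UC7-13D5 and phosphate buffered saline (PBS), IgG-IFNa and IgG-PBS. They held 3, 3, 4 and 3 libraries. The sources used here give neither age nor sex of the mice nor the number of mice per library, so the p-values measure the spread between these libraries, which may be partly technical.

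The genes belong to different pathways. Spp1 encodes osteopontin, a secreted phosphoprotein made by macrophages, activated T cells and bone cells, which binds integrins and CD44 and acts on adhesion and cell survival. Capg encodes a gelsolin-family protein that caps the barbed ends of actin filaments in motile cells. Tmprss6 encodes matriptase-2, a membrane-bound serine protease best known from liver, where it cleaves hemojuvelin and so lowers the iron hormone hepcidin. Map2 encodes a microtubule-associated protein best known from the dendrites of neurons.

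In the mm39 positions of the deposited table, Spp1 (ENSMUSG00000029304) lies on the plus strand of chromosome 5 from 104582984 to 104588916, and Capg (ENSMUSG00000056737) on the plus strand of chromosome 6 from 72521374 to 72539966. Tmprss6 (ENSMUSG00000016942) lies on the minus strand of chromosome 15 from 78323867 to 78352834, and Map2 (ENSMUSG00000015222) on the plus strand of chromosome 1 from 66214432 to 66481742. Counts were per gene, over all annotated exons. Spp1 overlaps the unclassified entry Gm42793 on the same strand, which had at most 15 counts in a library, and Map2 overlaps the antisense entry Gm10558, with at most 7 counts. The sources used here do not say whether counting used the strand.

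The sequence before the transcription start is shown for the 3 genes with an entry in the RefSeq promoter table of build GRCm38.p6. These genes were lower in UC7-IFNa than in IgG-IFNa, and whether any motif has a part in that was not tested. Each run holds the 250 bases upstream of the listed start, 5′ to 3′ on the gene's own strand, and for Spp1 the table lists 2 starts. The windows are chr5:104434861-104435110 (plus strand) for Spp1, chr6:72549397-72549646 (plus strand) for Capg and chr1:66175079-66175328 (plus strand) for Map2. Capitals mark matches to the motifs searched.
Spp1: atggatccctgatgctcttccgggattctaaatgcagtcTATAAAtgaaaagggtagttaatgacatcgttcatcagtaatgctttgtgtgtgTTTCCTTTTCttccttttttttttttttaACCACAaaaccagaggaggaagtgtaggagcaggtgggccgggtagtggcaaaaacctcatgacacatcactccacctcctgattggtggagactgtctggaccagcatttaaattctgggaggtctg
Capg: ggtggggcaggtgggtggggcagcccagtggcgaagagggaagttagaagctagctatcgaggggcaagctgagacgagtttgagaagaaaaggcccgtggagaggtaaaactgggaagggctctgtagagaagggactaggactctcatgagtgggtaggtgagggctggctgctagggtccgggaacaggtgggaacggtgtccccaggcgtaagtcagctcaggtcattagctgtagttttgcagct
Map2: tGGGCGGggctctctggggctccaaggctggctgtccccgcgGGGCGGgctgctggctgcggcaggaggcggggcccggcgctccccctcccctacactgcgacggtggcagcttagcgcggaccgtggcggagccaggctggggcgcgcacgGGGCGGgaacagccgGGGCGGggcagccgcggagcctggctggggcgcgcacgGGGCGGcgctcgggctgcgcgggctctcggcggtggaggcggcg
Of the bases, 43.6% were G or C for Spp1, 57.6% for Capg and 81.2% for Map2, against a median of 52% over 27025 promoters. The motifs, searched on both strands, were AP-1 (TGANTCA), RUNX (TGTGGT), T-box (GGTGTGA), ISRE (the interferon-stimulated response element, here GAAA followed by any 2 bases and GAAA again), GAS (TTCNNNGAA), the TATA box (TATAAA), GC box (GGGCGG), CRE (TGACGTCA) and E-box (CACGTG). Spp1 held the letters of an ISRE on the minus strand at -157 to -148, those of RUNX on the minus strand at -128 to -123, and TATAAA at -211 to -206, with -1 as the base before the start. Of all promoters of this length, 3.04% held the ISRE letters, 14.2% those of RUNX and 13.0% those of TATA. Map2 held 5 GC boxes, a motif found in 32.9% of promoters. Capg held none of the 9 motifs. The shares of the other motifs were 6.87% for AP-1, 3.31% for T-box, 7.18% for GAS, 1.62% for CRE and 6.05% for E-box. None of the matches overlapped another, and a match is only a match of letters.

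Depth was similar across libraries, at 19867171 to 26895833 estimated counts, and each library carried the 12 gamma delta intraepithelial lymphocyte markers, at a summed 48450 to 84397 CPM (counts per 10 to the power of 6 counts). Gzma, Gzmb and Cd7 made up most of that sum, so it does not measure purity. Trdc, a constant gene of the gamma delta receptor, averaged 179 to 205 CPM in a group. Some libraries stood apart. Xist, which is made from the inactive X chromosome of female cells, was at most 1.08 CPM in UC7-13D5 libraries, against 265 to 345 CPM in IgG-PBS libraries. The sum of 4 Y-linked transcripts was 132 to 329 CPM in UC7-13D5 libraries, against at most 0.310 CPM in IgG-PBS libraries. The antibody comparison with PBS therefore cannot be told apart from a difference in sex-linked transcripts. Among IgG-IFNa libraries, Xist stood at 204 and 215 CPM in numbers 1 and 2, whose Y-linked sums were 2.15 and 1.67 CPM. Numbers 3 and 4 held both kinds of RNA: Xist was 68.3 and 23.4 CPM and the Y-linked sum 210 and 320 CPM. The Xist and Y-linked values are without library scaling. Xist was thus higher in every IgG-IFNa library than in any UC7-IFNa library. The antibody comparison with IFNa therefore cannot be told apart from a difference in Xist either. In UC7-IFNa library 2 the ribosomal RNA gene Rn18s took 1.14% of counts (0.0866% to 0.333% elsewhere), and that library had the lowest correlation with a library of its own group (0.940).

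Spp1, the most abundant of the 4, was lower in every UC7-13D5 library than in any IgG library. Levels here and below are CPM scaled by the trimmed mean of M values (TMM). Spp1 stood at 55.3, 65.2 and 45.0 CPM in UC7-IFNa libraries 1 to 3 and at 50.7, 39.8 and 52.0 CPM in UC7-PBS libraries, against 125, 129, 135 and 161 CPM in IgG-IFNa libraries 1 to 4 and 85.5, 77.4 and 77.7 CPM in IgG-PBS libraries. The UC7-IFNa and UC7-PBS libraries overlapped, while the IgG-IFNa libraries all stood above the IgG-PBS libraries. The means were 55.2 ± 10.1 in UC7-IFNa and 47.5 ± 6.73 in UC7-PBS, against 137 ± 16.5 in IgG-IFNa and 80.2 ± 4.57 in IgG-PBS (SD, n = 3, 3, 4 and 3). The edgeR log2 fold change of UC7-13D5 against IgG was -1.32 (SE 0.16) with IFNa and -0.76 (SE 0.17) with PBS, or 2.49-fold and 1.69-fold lower.

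Capg, the actin-capping gene, had the same order of groups at a lower level. Its libraries held 13.9, 22.8 and 12.7 CPM in UC7-IFNa and 16.1, 12.0 and 18.2 CPM in UC7-PBS, against 47.7, 40.1, 37.1 and 34.7 CPM in IgG-IFNa and 31.4, 28.3 and 23.2 CPM in IgG-PBS. The groups of the antibody comparison did not overlap, but the margin was small: the highest UC7-13D5 library, UC7-IFNa library 2 at 22.8 CPM, stood next to IgG-PBS library 3 at 23.2 CPM. Means were 16.4 ± 5.50 in UC7-IFNa and 15.4 ± 3.12 in UC7-PBS, against 39.9 ± 5.68 in IgG-IFNa and 27.6 ± 4.15 in IgG-PBS. The log2 fold change of UC7-13D5 against IgG was -1.28 (SE 0.22) with IFNa and -0.84 (SE 0.23) with PBS, or 2.43-fold and 1.79-fold lower.

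Tmprss6, the matriptase-2 gene, was also lower in every UC7-13D5 library than in any IgG library. It stood at 10.8, 17.5 and 11.6 CPM in UC7-IFNa libraries and at 10.3, 5.88 and 14.7 CPM in UC7-PBS libraries, against 42.3, 32.8, 49.3 and 75.4 CPM in IgG-IFNa libraries and 27.7, 21.1 and 30.9 CPM in IgG-PBS libraries. IgG-IFNa library 4 stood well above the rest of its group. Means were 13.3 ± 3.68 in UC7-IFNa and 10.3 ± 4.41 in UC7-PBS, against 49.9 ± 18.2 in IgG-IFNa and 26.6 ± 4.97 in IgG-PBS. The log2 fold change of UC7-13D5 against IgG was -1.91 (SE 0.32) with IFNa and -1.37 (SE 0.33) with PBS, or 3.76-fold and 2.58-fold lower.

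Map2, the microtubule-associated gene, was the least abundant and separated the antibodies only where IFNa was given. Its libraries held 3.35, 1.51 and 2.32 CPM in UC7-IFNa and 3.37, 2.82 and 3.30 CPM in UC7-PBS, against 6.92, 8.75, 8.45 and 10.5 CPM in IgG-IFNa and 6.06, 2.89 and 3.06 CPM in IgG-PBS. With PBS, IgG-PBS libraries 2 and 3 lay within the range of the UC7-PBS libraries, and IgG-PBS library 1 alone stood above it. Means were 2.39 ± 0.921 in UC7-IFNa and 3.16 ± 0.299 in UC7-PBS, against 8.66 ± 1.48 in IgG-IFNa and 4.00 ± 1.78 in IgG-PBS. The log2 fold change of UC7-13D5 against IgG was -1.84 (SE 0.32) with IFNa and -0.34 (SE 0.33) with PBS, and without IgG-PBS library 1 the value with PBS changed sign, to 0.087. Map2 rested on 26 to 275 estimated counts per library, against 974 to 4215 for Spp1.

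**Figure D1:**
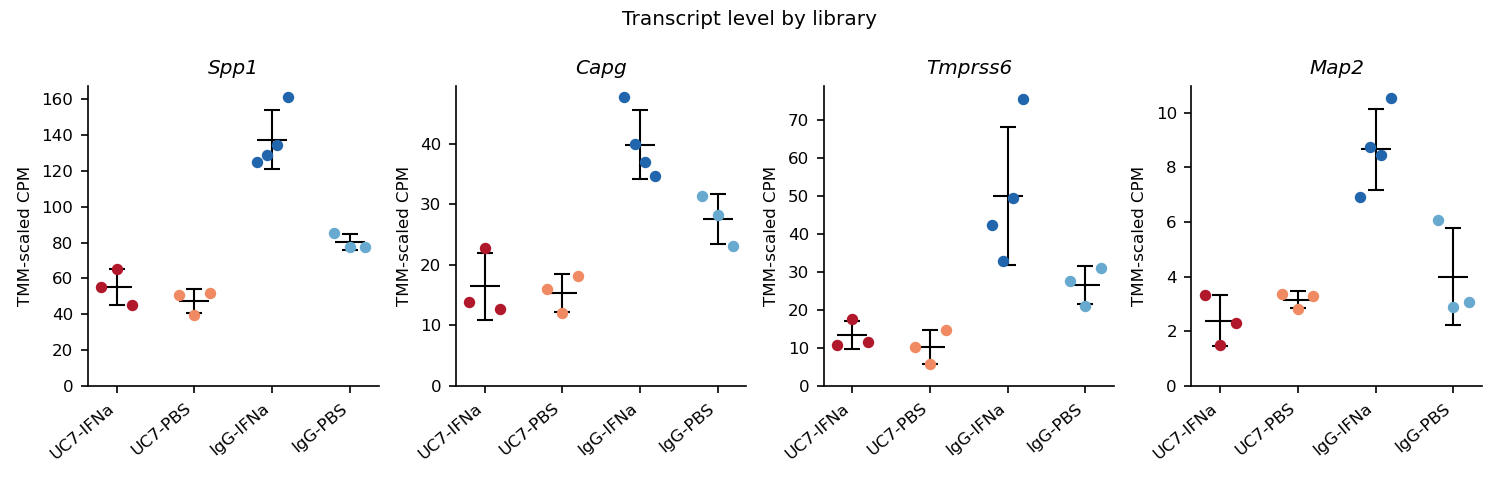
TMM-scaled CPM of each gene in each library (points, in library order within a group) with the group mean and SD (bars), for UC7-IFNa, UC7-PBS, IgG-IFNa and IgG-PBS. The Spp1, Capg and Tmprss6 points of UC7-13D5 libraries lie below all IgG points, while the Map2 points of UC7-PBS (2.82 to 3.37) and IgG-PBS (2.89 to 6.06) overlap.

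In bulk samples, fewer cells of a type that makes a transcript and less transcript per cell cannot be told apart. The counts over all genes that follow come from the contrasts that chose the 4 genes, so nothing is read from the place of the 4 among them. All 6 UC7-13D5 libraries lay below all 7 IgG libraries for 19 of 15835 genes (0.12%), Spp1, Capg and Tmprss6 among them. Every UC7-13D5 library lay below every IgG library of the same injection for 66 genes (0.417%) in both arms, for 483 genes (3.05%) with IFNa, where Map2 joined the other 3, and for 918 genes (5.8%) with PBS. In the edgeR fit over all genes 6 genes were lower in UC7-IFNa than in IgG-IFNa (0.0379%). Xist and Ighd, the immunoglobulin delta constant region, were among them. The 4 genes described here were picked from this contrast, so no call is given for them. With PBS the 1 gene past the threshold was Xist (0.00632%). Calls in either direction with IFNa, 12 in all, ran from 0 without UC7-IFNa library 3 to 52 without UC7-IFNa library 1 when each library was left out in turn. Ordered by log2 fold change from the lowest, with IFNa Tmprss6 was number 59, Map2 70, Spp1 187 and Capg 202 of 15835, and with PBS Tmprss6 was 115, Capg 383, Spp1 487 and Map2 1654.

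Per kilobase of exon, the 4 genes were far apart in level. Spp1 averaged 33.5 CPM per kilobase in UC7-IFNa and 28.8 in UC7-PBS, against 83.3 in IgG-IFNa and 48.7 in IgG-PBS. That placed it above 87.4%, 86.5%, 95.6% and 92.1% of 15803 genes with a known exon length, in the same order of groups. Capg averaged 6.50, 6.09, 15.8 and 10.9 CPM per kilobase and Tmprss6 3.96, 3.06, 14.9 and 7.91, again in that order. Map2, with 16449 exonic bases, averaged 0.145, 0.192, 0.526 and 0.243 CPM per kilobase, above 7.59%, 9.40%, 21.1% and 12.2% of genes.

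Values of the 4 genes are given here beside the Y-linked transcripts. IgG-IFNa library 4, with 320 CPM of Y-linked transcripts beside 23.4 CPM of Xist, had 161 CPM of Spp1, 34.7 of Capg, 75.4 of Tmprss6 and 10.5 of Map2. The UC7-IFNa libraries, with 132 to 329 CPM of Y-linked transcripts, had at most 65.2 CPM of Spp1, 22.8 of Capg, 17.5 of Tmprss6 and 3.35 of Map2. Within IgG-IFNa, libraries 3 and 4 were the highest for Spp1 and Tmprss6 and the lowest for Capg. Without libraries 3 and 4, the log2 fold change of UC7-IFNa against IgG-IFNa was -1.20 (SE 0.18) for Spp1, -1.42 (SE 0.26) for Capg, -1.50 (SE 0.33) for Tmprss6 and -1.70 (SE 0.39) for Map2. With PBS no IgG library carried Y-linked transcripts. A fit with the Y-linked sum as a covariate gave -0.26 for Capg and -0.90 for Map2 there, against -0.84 and -0.34 without it, and -0.80 for Spp1 and -1.74 for Tmprss6. With IFNa that fit gave -1.33 for Spp1, -1.07 for Capg, -2.01 for Tmprss6 and -2.10 for Map2. The Y-linked sum varied within a group mainly in IgG-IFNa and UC7-IFNa, so these groups largely set the slope of the covariate. The values with PBS carry that slope over to libraries where the Y-linked sum and the antibody cannot be separated.

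**Figure D2:**
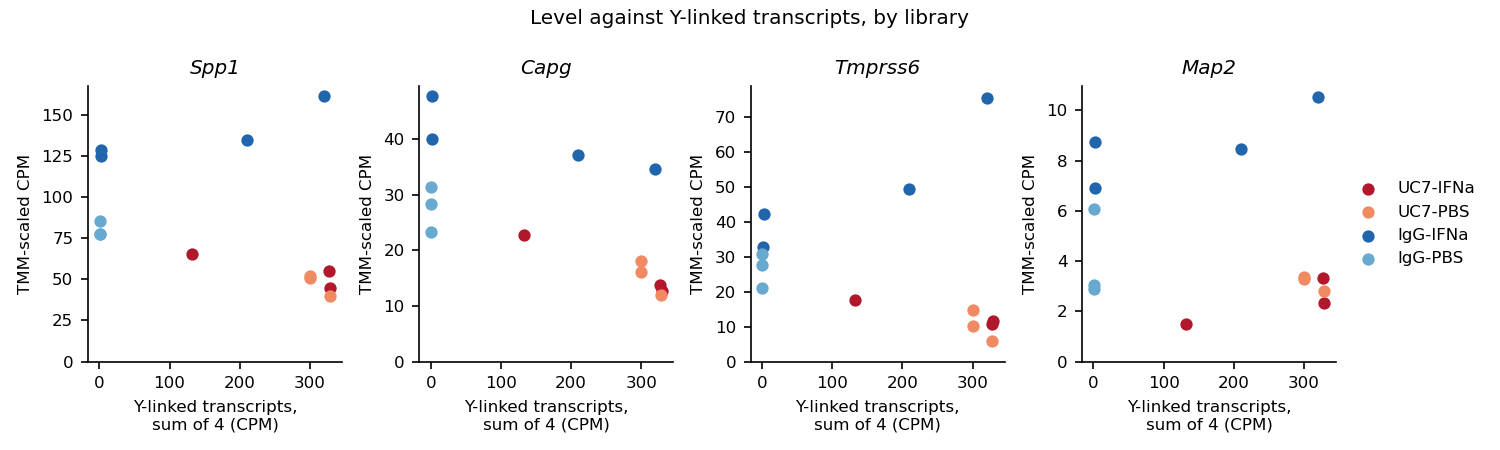
TMM-scaled CPM of each gene against the summed CPM of 4 Y-linked transcripts, 1 point per library, coloured by group. IgG-IFNa libraries 3 and 4, at 210 and 320 CPM of Y-linked transcripts, lie above the UC7-13D5 libraries for all 4 genes. Both libraries also carried Xist, at 68.3 and 23.4 CPM.

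UC7-IFNa library 2 was the highest of its group for Spp1, Capg and Tmprss6 and the lowest for Map2. Without it, the log2 fold change of UC7-IFNa against IgG-IFNa was -1.46 (SE 0.16) for Spp1, -1.60 (SE 0.20) for Capg, -2.17 (SE 0.37) for Tmprss6 and -1.62 (SE 0.32) for Map2. The direction was the same for all 4 genes with and without that library.

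The comparison of IFNa with PBS asked whether the 4 genes respond to the interferon. It shares libraries with the choice of the genes, since IgG-IFNa and IgG-PBS were the upper groups in that choice, so the comparison within one antibody is not independent of it. The p-values, calls and shares of genes within one antibody are therefore a description and no support for a response. The mean of both IFNa effects is less tied to the choice, because it averages the UC7-13D5 and IgG groups of each injection. After IgG, all 4 genes were higher in every IgG-IFNa library than in any IgG-PBS library, which was so for 7.09% of all genes. Spp1 passed the threshold, at 0.78 on the log2 scale (SE 0.16, edgeR adjusted p = 0.0306), in a comparison where 131 genes passed (0.827%), 98 of them higher (0.619%) and 33 lower (0.208%). Map2 had 1.11 (SE 0.31, edgeR adjusted p = 0.131), Tmprss6 0.91 (SE 0.31, adjusted p = 0.239) and Capg 0.53 (SE 0.21, adjusted p = 0.367), none past the threshold.

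The Spp1 call after IgG depended on single libraries. It was lost without IgG-IFNa library 2 (0.81), 3 (0.79) or 4 (0.69) and without IgG-PBS library 1 (0.83), 2 (0.75) or 3 (0.76), with edgeR adjusted p from 0.0524 to 0.162. Without both IgG-IFNa libraries with Y-linked transcripts Spp1 had 0.66 (SE 0.18, edgeR adjusted p = 0.389), a fit in which 21 genes passed. The count of 131 ran from 24 without IgG-PBS library 1 to 430 without UC7-IFNa library 2. Map2 passed when UC7-IFNa library 2 was left out, a library of neither group that enters the shared spread (1.11, edgeR adjusted p = 0.0332).

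After UC7-13D5 none of the 4 genes passed, and the UC7-IFNa and UC7-PBS libraries overlapped for each. The log2 fold change of IFNa was 0.22 for Spp1 (95% interval -0.11 to 0.54, edgeR adjusted p = 0.803) and 0.089 for Capg (-0.36 to 0.54, adjusted p = 0.958). It was 0.37 for Tmprss6 (-0.28 to 1.01, edgeR adjusted p = 0.847) and -0.39 for Map2 (-1.05 to 0.27, adjusted p = 0.840). In this comparison 57 genes passed (0.36%), or 29 without UC7-PBS library 1 to 110 without UC7-IFNa library 2, and for 5.89% of genes all UC7-IFNa libraries lay above all UC7-PBS libraries. The IFNa effect after UC7-13D5 minus that after IgG was -0.56 for Spp1, -0.44 for Capg, -0.54 for Tmprss6 and -1.50 for Map2. This difference was not tested, because it is made of the same antibody differences that chose the genes.

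Averaged over antibodies, Spp1 had a log2 fold change of IFNa of 0.50 (95% interval 0.27 to 0.72, edgeR adjusted p = 0.0344), in a comparison where 315 genes passed (1.99%) and 248 were higher (1.57%). With each library left out in turn, 172 (without IgG-PBS library 3) to 933 (without UC7-IFNa library 2) genes passed. Tmprss6 had 0.64 (0.20 to 1.08, edgeR adjusted p = 0.177), Capg 0.31 (0.0014 to 0.62, adjusted p = 0.384) and Map2 0.36 (-0.081 to 0.81, adjusted p = 0.507). The intervals are approximate and somewhat narrow: that of Capg lies above no change although its unadjusted edgeR p was 0.0672. The Spp1 value lost its call when IgG-IFNa library 3 (0.50) or 4 (0.45), any IgG-PBS library (0.52, 0.48 and 0.48 without libraries 1, 2 and 3), UC7-IFNa library 1 (0.49) or any UC7-PBS library (0.52, 0.44 and 0.53) was left out. It kept its sign in all of the 13 single omissions, at 0.42 to 0.56. Without both IgG-IFNa libraries with Y-linked transcripts it was 0.44 (edgeR adjusted p = 0.166).

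**Figure D3:**
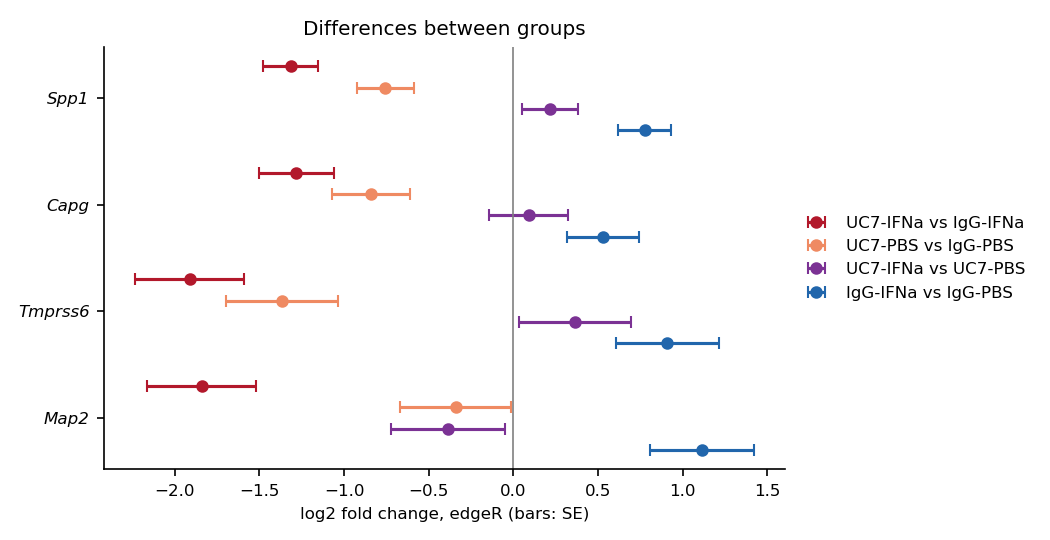
Log2 fold changes with SE from the edgeR fit for each gene: UC7-IFNa against IgG-IFNa, UC7-PBS against IgG-PBS, UC7-IFNa against UC7-PBS and IgG-IFNa against IgG-PBS. The antibody values with IFNa (-1.91 to -1.28) lie left of those with PBS (-1.37 to -0.34), and the IFNa values after IgG (0.53 to 1.11) lie right of those after UC7-13D5 (-0.39 to 0.37).

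Libraries of one group also differed among themselves, a variation that the choice of genes did not use. The highest library of a group held between 1.10 and 1.45 times the Spp1 level of the lowest, 1.35 to 1.79 times for Capg, 1.46 to 2.50 times for Tmprss6 and 1.19 to 2.22 times for Map2. Deviations of Spp1 and Tmprss6 from their group means went together (Pearson r = 0.795 over 13 libraries, exact permutation within groups p = 0.0116, adjusted over 6 pairs 0.0694). Spearman's rho was 0.786 (exact permutation p = 0.00984, adjusted 0.0590), and r was 0.682 without IgG-IFNa library 4 and UC7-IFNa library 2, the libraries farthest out for Spp1. After adjustment this relation did not pass the threshold, and it did without IgG-PBS library 3 (r = 0.834, exact permutation, adjusted p = 0.0382).

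The other 5 pairs did not pass either. Spp1 and Capg had r = 0.564 (rho 0.511, exact permutation, adjusted p = 0.536), and r was 0.300 without UC7-IFNa library 2. Capg and Tmprss6 had 0.374 (rho 0.346, exact permutation, adjusted p = 0.551), which dropped to 0.0395 without the libraries farthest out for Capg, UC7-IFNa library 2 and UC7-PBS library 2. For Map2, r was 0.164 with Spp1, 0.0520 with Tmprss6 and -0.254 with Capg (exact permutation, adjusted p of 0.839 or more). Spp1 and Map2 had r = 0.688 without UC7-IFNa library 2 (exact permutation, adjusted p = 0.0243), the library in which Spp1 was high and Map2 low for its group.

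**Figure D4:**
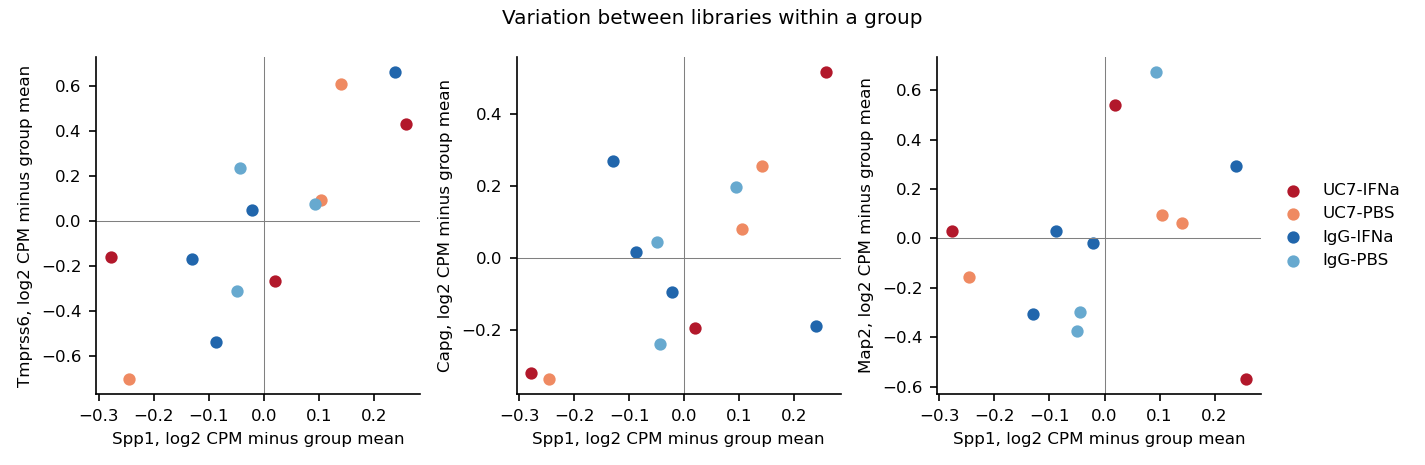
Log2 CPM minus the group mean, 1 point per library, for Tmprss6, Capg and Map2 against Spp1, coloured by group. The Tmprss6 points rise with Spp1 (r = 0.795), the Capg points scatter more (0.564), and the Map2 panel has UC7-IFNa library 2 at its lower right (0.164).

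Across all 13 libraries, each of Spp1, Tmprss6 and Capg had the other two among the 3 genes most like it in level. Among the 10245 genes whose log2 CPM averaged 1 or more, Tmprss6 and Capg were first and second by Pearson correlation with Spp1 (0.960 and 0.935), and Map2 was number 12 (0.835). These correlations run over libraries that share their groups and so repeat the antibody difference; they describe likeness and have no test. The next for Spp1 were Calcb, which encodes a calcitonin gene-related peptide (0.903), and Klrh1, of the natural killer lectin-like receptor family (0.895). Calcb led for Capg (0.954), where TUSC3, a subunit of the oligosaccharyltransferase, came next after Spp1 and Tmprss6 (0.887). For Tmprss6 the others were Errfi1, an inhibitor of the epidermal growth factor receptor (0.900), and Ighd (0.883). Calcb stood at 5.07 ± 2.45 CPM in UC7-IFNa and 4.45 ± 0.878 in UC7-PBS, against 11.0 ± 1.58 in IgG-IFNa and 7.98 ± 2.10 in IgG-PBS.

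Map2 had other neighbours. They were Itih5, an inter-alpha-trypsin inhibitor heavy chain (0.900), Cep43, a centrosomal protein (0.897), Hccs, which attaches heme to cytochrome c (0.894), and Dus2, a transfer RNA dihydrouridine synthase (0.856). Itih5 stood at 121 ± 22.1 CPM in UC7-IFNa and 132 ± 23.1 in UC7-PBS, against 198 ± 26.9 in IgG-IFNa and 147 ± 27.5 in IgG-PBS, and shared with Map2 a highest level in IgG-IFNa. With group means removed, the genes most like Spp1 were Dnm3 (0.921), a dynamin, and Slc16a11 (0.907), a monocarboxylate transporter. Those most like Tmprss6 were Selenbp1 (0.907) and C1qtnf6 (0.905), those most like Capg were Dlgap4 (0.906) and Tcf19 (0.899), and those most like Map2 were Srek1 (0.946), a splicing factor, and Prdm9 (0.912), a histone methyltransferase.

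None of the tested partner genes passed the threshold between antibodies, where 12 of 15835 genes passed with IFNa and 1 with PBS. With so few calls over all genes, a count of 0 does not set a list apart, here or below. Of 8 tested osteopontin receptor genes, 0 passed in either antibody comparison. Of all 15835 genes, 1138 had an unadjusted edgeR p under 0.05 with IFNa and 791 with PBS, and DESeq2 called 120 and 69 genes. The 791 with PBS are about as many as that cutoff gives when no gene differs. The median log2 fold change of the receptor genes was -0.12 with IFNa and 0.047 with PBS, beside 0.011 and -0.0099 over all genes. The median with IFNa changed sign to 0.062 without UC7-IFNa library 2. Cd44, the osteopontin receptor that is also a mark of T cell activation, averaged 45.6 CPM in UC7-IFNa and 52.5 in UC7-PBS, against 29.0 in IgG-IFNa and 51.8 in IgG-PBS. Its log2 fold change of IFNa was -0.84 after IgG (SE 0.19, edgeR adjusted p = 0.0628), opposite in sign to Spp1 and not past the threshold, and it passed without UC7-IFNa library 2. Itgav, the alpha V integrin, averaged 84.3, 81.9, 94.1 and 70.6 CPM in the same order of groups.

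Among 10 transcription factors listed for Spp1 in lymphocytes, 0 passed between antibodies and Fos and Jun fell with IFNa after IgG, the 2 genes of the list that passed there. Jun averaged 498 ± 92.4 CPM in UC7-IFNa and 660 ± 184 in UC7-PBS, against 560 ± 221 in IgG-IFNa and 1555 ± 165 in IgG-PBS, with an IFNa log2 fold change after IgG of -1.48 (SE 0.26, edgeR adjusted p = 0.0159). Fos had -1.02 (SE 0.14, edgeR adjusted p = 0.00378). Neither passed without both IgG-IFNa libraries that carried Y-linked transcripts. Tbx21, the T-bet gene, had 0.055 (SE 0.14). Spp1 stood higher in IgG-IFNa than in IgG-PBS while the AP-1 subunits stood lower there. For UC7-13D5 against IgG, 3 of the 10 values were negative with PBS and 5 with IFNa. With PBS, Jun had -1.24 (SE 0.28, edgeR adjusted p = 0.275) and Fos -0.79 (SE 0.16, edgeR adjusted p = 0.196). Spp1 had -0.76 there. For Jun and for Fos, every UC7-PBS library lay below every IgG-PBS library, which was so for 5.8% of all genes. With IFNa the values were -0.17 for Jun and -0.38 for Fos.

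The gelsolin family to which Capg belongs had 0 of 7 genes past the threshold between antibodies, with a median of -0.023 with IFNa (0.013 without UC7-IFNa library 2) and 0.052 with PBS. Gsn, gelsolin itself, averaged 110 CPM in UC7-IFNa and 143 in UC7-PBS, against 104 in IgG-IFNa and 137 in IgG-PBS. Flii averaged 124, 121, 126 and 128 CPM in that order. Of 26 genes of actin capping and turnover, 0 passed and the medians were 0.055 with IFNa (-0.017 without UC7-IFNa library 2) and 0.0098 with PBS. Capzb, the beta subunit of the other barbed-end capping protein, averaged 763, 661, 676 and 665 CPM.

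Of the type II transmembrane serine proteases related to Tmprss6, 3 were tested and 0 passed. St14, matriptase itself, averaged 36.7 CPM in UC7-IFNa and 33.3 in UC7-PBS, against 32.0 in IgG-IFNa and 30.2 in IgG-PBS. Tmprss2 and Tmprss4, known from epithelium, reached at most 9.41 and 3.43 CPM in a library. The substrate and target of matriptase-2 in liver, hemojuvelin (Hjv) and hepcidin (Hamp), were not found by these symbols among the 21084 genes with counts. Of 13 tested genes of the hepcidin and hemojuvelin axis 0 passed (median 0.067 with IFNa and 0.21 with PBS), and of 10 genes of cellular iron handling 0 passed (-0.13 and 0.027). Without UC7-IFNa library 2 both medians with IFNa changed sign, to -0.085 for the hepcidin axis and 0.038 for iron handling. In the iron list, Tfrc, the transferrin receptor, had the lowest values, -0.84 with IFNa and -0.46 with PBS.

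Map4, the widely expressed relative of Map2, averaged 86.4 CPM in UC7-IFNa and 84.6 in UC7-PBS, against 94.0 in IgG-IFNa and 87.3 in IgG-PBS, and Mapt, tau, at most 0.864 CPM in a library. Neither passed between antibodies. Of 17 other microtubule-associated genes 0 passed (median -0.15 with IFNa and 0.038 with PBS), and of 12 tubulins 0 passed (0.13 and -0.060). Without UC7-IFNa library 2 the medians with IFNa were -0.076 for the other microtubule-associated genes and -0.047 for tubulins.

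**Figure D5:**
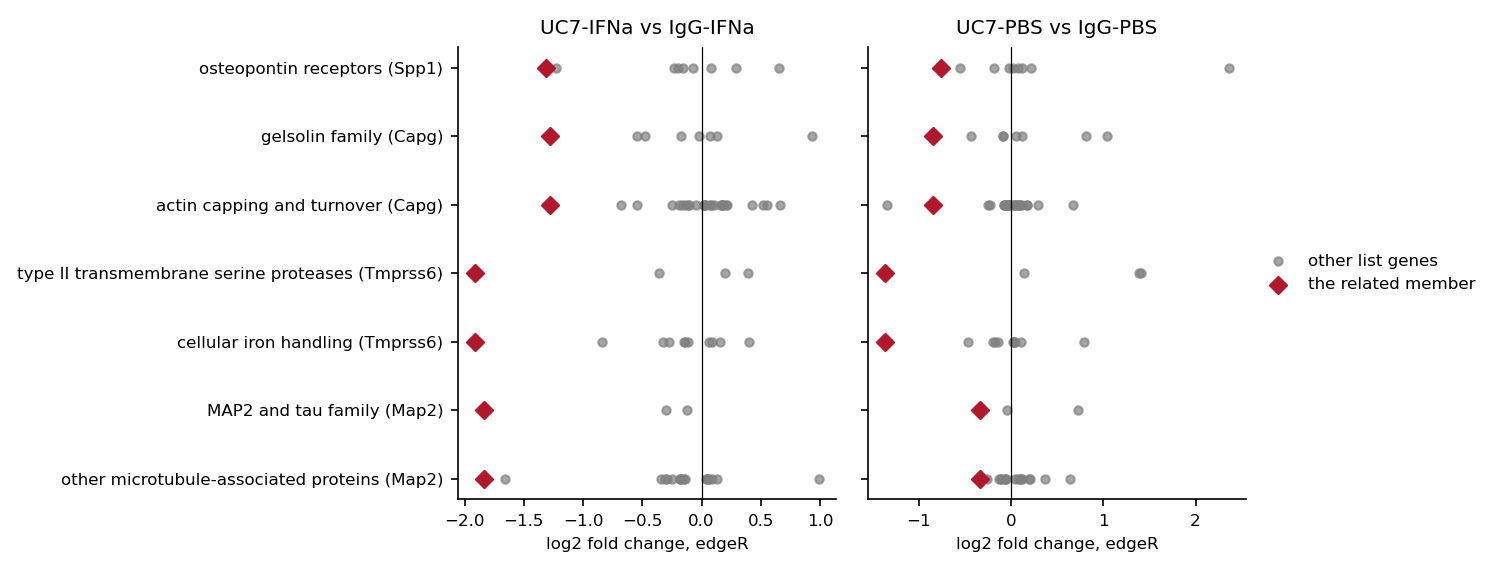
EdgeR log2 fold changes of UC7-IFNa against IgG-IFNa (left) and UC7-PBS against IgG-PBS (right) for genes of each list (grey points) and the gene each list belongs to (red diamonds). No grey point passed the threshold in either comparison, where 12 (IFNa) and 1 (PBS) of 15835 genes passed. The diamonds with IFNa lie between -1.91 and -1.28.

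Genes that TCR signals switch on were examined beside the 4 genes, since UC7-13D5 binds the receptor. Of 27 genes of the early TCR response 0 passed between antibodies, with a median of -0.12 with IFNa and -0.29 with PBS, beside 0.011 and -0.0099 over all genes. The median with IFNa was -0.41 without UC7-IFNa library 2 and -0.20 without both IgG-IFNa libraries 3 and 4. With IFNa after IgG, Ifng, Myc and Cd69 were lower past the threshold. Ifng averaged 25.2 ± 7.75 CPM in UC7-IFNa and 45.0 ± 13.5 in UC7-PBS, against 29.2 ± 6.96 in IgG-IFNa and 72.8 ± 9.62 in IgG-PBS, so its lowest groups were those with IFNa, unlike Spp1. None of the 3 passed without both IgG-IFNa libraries with Y-linked transcripts, and without UC7-IFNa library 2 there were 7 that passed. With IFNa averaged over antibodies, 8 of the 27 were lower past the threshold and 0 higher, where 1.99% of all genes passed. They were Myc, Ifng, Egr1, Cd69, Ccl3, Nr4a1, Nfkbid and Egr2. After UC7-13D5, Nfkbid alone passed (-1.29, SE 0.25, edgeR adjusted p = 0.0297), where 0.36% of all genes did. Of 10 genes of the type 1 gamma delta programme 0 passed between antibodies (median -0.090 with IFNa and -0.00051 with PBS), as did 0 of 4 tested genes of the type 17 programme (0.19 and 0.57). Without UC7-IFNa library 2 the medians with IFNa were -0.19 for the type 1 and -0.24 for the type 17 programme. Of the type 1 list, Ifng, Crtam and Klrc1 were lower and Il2rb higher with IFNa averaged over antibodies, past the threshold. Klrc1 was also lower with IFNa after UC7-13D5 (-1.85, SE 0.37, edgeR adjusted p = 0.0474).

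Markers of other cells were summed beside the 4 genes, and their part in the antibody differences was not tested. Of the 16 macrophage and dendritic cell markers, a source of osteopontin and Capg, 14 were tested and 0 passed between antibodies. Their summed level over 15 listed genes was 149 to 187 CPM in UC7-IFNa and 171 to 235 in UC7-PBS, against 125 to 191 in IgG-IFNa and 141 to 150 in IgG-PBS. Itgax, which these lymphocytes also express, made up most of the sum, at 109, 151, 116 and 110 CPM on average. Csf1r averaged 5.35 CPM in UC7-IFNa and 2.99 in UC7-PBS, against 3.71 in IgG-IFNa and 2.52 in IgG-PBS, and Adgre1 at most 0.574 CPM in a group. None of the 15 was at 0 in every library. On average the sum was 168 CPM in UC7-IFNa and 200 in UC7-PBS, against 165 in IgG-IFNa and 147 in IgG-PBS. With IFNa averaged over antibodies, where Spp1 passed, 2 of the 14 were higher past the threshold, as were 1.57% of all genes. They were Fcgr1 (3.02, edgeR adjusted p = 0.0189), at most 1.22 CPM in a library, and C1qc (1.34, adjusted p = 0.0235). The list median for IFNa was 0.77 after IgG, 0.11 after UC7-13D5 and 0.59 averaged. The part of these cells in the Spp1 result was not tested.

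Alpha beta T cells, which also make osteopontin when activated, had 9 listed markers, all tested, of which 0 passed between antibodies. They summed to 1684 to 2731 CPM in UC7-IFNa and 1531 to 1800 in UC7-PBS, against 1515 to 2148 in IgG-IFNa and 1526 to 1891 in IgG-PBS. The T cell receptor constant genes Trac, Trbc1 and Trbc2 made up most of the sum, while Cd4 reached at most 5.06 CPM in a library. Cd6, a T cell surface receptor, was lower with IFNa after IgG (-1.32, SE 0.29, edgeR adjusted p = 0.0469), but not past the threshold without UC7-IFNa library 2 or without both IgG-IFNa libraries 3 and 4. Of 9 innate lymphoid and NK cell markers 5 were tested and 0 passed between antibodies. The sum over 8 listed genes was 164 to 250 CPM in UC7-IFNa and 162 to 317 in UC7-PBS, against 227 to 326 in IgG-IFNa and 242 to 315 in IgG-PBS. Its means were lower in UC7-IFNa (210) and UC7-PBS (241) than in IgG-IFNa (277) and IgG-PBS (272), the direction of Spp1, with overlapping libraries. Kit made up the largest share of the means, and the defining NK gene Ncr1 reached at most 0.434 CPM in a library. Enteroendocrine and tuft cell markers summed to 4.25 to 41.8 CPM over all libraries and stroma and endothelium markers to 13.2 to 35.6 CPM, with 0 of 6 and 0 of 3 tested genes past the threshold between antibodies.

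Of the 15 neuron and glia markers, 7 were tested and 0 passed between antibodies. The sum over 13 listed genes was 17.4 to 18.0 CPM in UC7-IFNa and 23.4 to 26.2 in UC7-PBS, against 13.5 to 24.9 in IgG-IFNa and 19.3 to 22.0 in IgG-PBS. The defining genes Elavl3, Elavl4 and Rbfox3 were at or near 0, with at most 0.408 CPM in a library. Goblet and Paneth cell markers summed to 367 to 1294 CPM in UC7-IFNa and 861 to 2015 in UC7-PBS, against 609 to 1246 in IgG-IFNa and 84.5 to 585 in IgG-PBS. Zg16 and Fcgbp of that list were higher with IFNa after IgG past the threshold, beside Spp1, and their part in the Spp1 result was not tested. Neither passed without both IgG-IFNa libraries 3 and 4. B and plasma cell markers, to which Ighd is related, summed to 811 to 1388 CPM in UC7-IFNa and 712 to 744 in UC7-PBS, against 838 to 926 in IgG-IFNa and 694 to 830 in IgG-PBS. Absorptive enterocyte markers summed to 62.5 to 175 and 59.9 to 123 CPM, against 44.3 to 112 and 37.1 to 126 CPM, in that order of groups. Igha, of the B and plasma cell list, was higher with IFNa averaged over antibodies (0.99, SE 0.16, edgeR adjusted p = 0.00410). It was the 1 gene of 9 tested in that list to pass there, where 1.57% of all genes were higher past the threshold.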

How the data were processed

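RNA was sequenced from 13 libraries of sorted gamma delta intraepithelial lymphocytes. The labels' protocols name RNeasy for extraction and SMART-Seq HT for library preparation. Tools in the submitters' processing notes are Partek, STAR 2.7.8a and DESeq2, and the build is mm39; their roles are not stated. The authors deposited estimated counts per gene, of which 38.0% were not whole, for 21084 genes. Their second deposited table is a signal, counts normalized by library, for 11281 genes, and served for an alternative only. Groups came from the sample titles.

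Counts were rounded, filtered with filterByExpr (minimum count 10) to 15835 genes, scaled by TMM and fitted with one coefficient per group over all 13 libraries by edgeR 4.0.16 (robust quasi-likelihood, R 4.3.3). Tests were two-sided with Benjamini-Hochberg adjustment over all tested genes and a threshold of 0.05. Each SE is the log2 fold change divided by the square root of F. Relations between genes used deviations of log2 CPM (prior count 2) from group means and an exact two-sided permutation of libraries within groups (5184 orders). Alternatives used DESeq2 1.42.0, limma 3.58.1 (log2 of the normalized counts plus 1), other filters, scaling, covariates and omitted libraries. Scripts were tested on simulated data. Exon lengths came from GENCODE vM21 (GRCm38) and promoters from RefSeq.

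The 4 genes, the gene lists and the tests were chosen with earlier results of these data known. Genes named besides the 4 were drawn from up to 4 per list and contrast past the threshold with the smallest p. A fixed set was added (Cd44, Itgav, Gsn, Capzb, St14, Mapt, Map4, Nr4a1, Jun, Ifng, Tbx21, Xist and Ddx3y). For each of the 4 genes, the 4 most like it over all libraries and 2 with group means removed were also named. Not all genes that these rules allow are given with values in every comparison. Flii, Tmprss2, Tmprss4, Tfrc and single markers were chosen after their values were seen.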

Additional observations from a re-analysis of the deposited data

How the results depend on the processing

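DESeq2 called 406 genes for IFNa after IgG, 141 after UC7-13D5, 777 averaged, 120 for UC7-13D5 with IFNa and 69 with PBS, and Map2 then passed for IFNa after IgG (1.11, adjusted p = 0.0156). Fits on only the groups compared called 343, 22, 0 and 19 genes for IFNa after IgG, IFNa after UC7-13D5, UC7-13D5 with IFNa and UC7-13D5 with PBS. With no filter 0 genes passed for UC7-13D5 with PBS, and limma on the authors' normalized counts called 2 for UC7-13D5 with IFNa. The replicate block called 27, 34, 146 and 1 genes for IFNa after IgG, after UC7-13D5, averaged and UC7-13D5 with IFNa, and Spp1 lost its calls (0.69 after IgG and 0.45 averaged). The numbers do not pair the libraries: over 18 same-numbered pairs the correlation of deviations was -0.210 to 0.135, above 0.1 in 2, and IgG-IFNa library 4 has no partner. With the Y-linked covariate 24 genes passed for IFNa after IgG and 23 for UC7-13D5 with IFNa, and Spp1 lost its calls (0.75 and 0.49), while UC7-13D5 with PBS gave -0.26 for Capg and -0.90 for Map2. Covariate values with PBS, here and below, rest on a slope set mainly by the groups with IFNa. Without both IgG-IFNa libraries 3 and 4 the counts were 21 for IFNa after IgG, 131 averaged, 6 for UC7-13D5 with IFNa and 5 with PBS, and Spp1 had 0.66 and 0.44, below the threshold. The covariate with UC7-IFNa library 2 left out, chosen after seeing the data, called 136 genes for IFNa after UC7-13D5, 621 averaged and 27 for UC7-13D5 with IFNa. It gave Spp1 0.36 averaged (no call), and for UC7-13D5 -1.02 (Spp1), -0.47 (Capg) and -2.19 (Tmprss6) with PBS and -1.62 (Spp1) and -2.63 (Tmprss6) with IFNa.

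Leaving out 1 library at a time gave 24 to 430 genes for IFNa after IgG, 29 to 110 after UC7-13D5, 172 to 933 averaged, 0 to 52 for UC7-13D5 with IFNa and 0 to 4 with PBS. Spp1 ranged from 0.69 to 0.83 for IFNa after IgG and from 0.42 to 0.56 averaged, and Map2 from 0.93 to 1.54 after IgG. For UC7-13D5 with PBS, Map2 ranged from -0.53 to 0.087, the one change of sign among the antibody differences of the 4 genes. The relation of Spp1 and Map2 within groups ranged from 0.0368 to 0.688 and that of Spp1 and Tmprss6 from 0.705 to 0.893. The cause of these changes was not tested. With 3 or 4 libraries per group and 26 to 275 counts for Map2, small differences of that gene are not resolved.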
